A study of Mus musculus with 14 samples.

Results

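Male C57BL/6 mouse hearts in which Fam210a had been deleted from cardiomyocytes were compared with control hearts about 5 weeks after tamoxifen, the earlier of 2 time points and the one before heart failure in this model. The knockout hearts (cKO) carry floxed Fam210a alleles and the inducible Cre transgene (Fam210afl/fl, alphaMHCMCM/+), and the control hearts carry the transgene without floxed alleles (alphaMHCMCM/+). Both groups received tamoxifen, so the transgene and the drug are shared by all hearts compared. The comparison holds 8 of the 14 hearts of the series, 4 per group by their titles, and every one of the 53735 gene symbols in the early count table, of which 13529 held enough reads to be tested. The question is which genes, and which groups of genes that each differ little, separate the hearts at this stage.

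FAM210A is a protein of mitochondria, where it takes part in making the proteins encoded by mitochondrial DNA. Cardiomyocytes depend on these proteins for ATP, and stress in their mitochondria is relayed to the nucleus through the integrated stress response, in which the transcription factor ATF4 raises genes for amino acid supply and tRNA charging. MerCreMer is a Cre recombinase fused to mutated hormone-binding domains of the mouse oestrogen receptor and is driven here by the alpha myosin heavy chain promoter, which is active in cardiomyocytes, so Fam210a in other cells of the heart is left intact.

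One heart has labels that disagree. The title and description of cKO replicate 4 call it a knockout, but in its genotype entry the floxed alleles are absent. Its level of Mthfd2, the mitochondrial folate enzyme with the largest fold change in the comparison, was 29.2 CPM (the gene's count scaled to the normalised size of its library), against at most 3.08 CPM in controls. Among 178 genes called from the other 7 hearts and tested in both fits, it lay beyond all 4 controls on the cKO side in 117, inside their range in 51 and beyond them on the other side in 10. It was the least changed cKO heart in 51 of the 70 genes that rose, and its median rank correlation with control hearts over all genes tested was 0.9931, above the 0.9922 with its own group. It is kept in the group its title gives, and results that turn on it are given without it. A pair of other hearts also stood apart. Control replicate 3 was higher in short transcripts, with a median difference from the other controls of 0.15 on the log2 scale over the 3059 shortest genes and -0.14 over the 3055 longest. In cKO replicate 2 atrial genes were high, with Myl7, an atrial myosin light chain, at 175 CPM against 0.254 to 3.13 CPM in the other cKO hearts. Libraries held 15657298 to 19466469 counts. Whether every library came from its own animal is not in the labels, and the p-values reflect only how much these 8 libraries differ.

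The targeted gene differed little in whole-heart RNA. Fam210a (chromosome 18, 68260187 to 68300333, minus strand, GRCm38) stood at 158, 135, 140 and 150 CPM in the cKO hearts and at 173, 178, 166 and 165 CPM in controls. Every cKO heart was lower than every control. On the log2 scale the difference was -0.22 (SE 0.06), or 14.4% lower, and it did not pass edgeR's test (adjusted p = 0.170). The exact two-sided permutation p of this single value was 0.0286, the smallest that 4 against 4 hearts can give. Fam210a overlaps Ldlrad4 on the other strand, and the library kit does not mark the strand, so reads of overlapping genes cannot be told apart here or elsewhere. Ldlrad4 itself stood at 6.23 to 8.21 CPM in all hearts. Whether the deposited counts include reads from parts of Fam210a that Cre leaves in place is not given in the sources used here.

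A second gene bears on the design. Reads counted for Esr1, the gene of oestrogen receptor alpha, reached 2796, 2174, 2003 and 2929 CPM in cKO hearts and 3577, 2981, 4020 and 3367 CPM in controls. The groups did not overlap, and every cKO heart was lower. The transgene carries part of the Esr1 coding sequence, so reads of the transgene and of Esr1 cannot be told apart. The log2 fold change was -0.49 (SE 0.12, edgeR adjusted p = 0.138) with all hearts and -0.59 (adjusted p = 0.0398) without cKO replicate 4.

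Over all genes the hearts were alike, and the genes that passed were mostly higher in cKO. A gene is called here when its adjusted p in edgeR's quasi-likelihood test is under 0.05. Of 13529 genes, 83 were called (0.613%), 70 higher (0.517%) and 13 lower (0.0961%). Each of the 83 had groups that did not overlap, so separation of the groups in a called gene is no further support. The median log2 fold change over all genes was 0.00. Of the rises 30 reached 2-fold and 23 stayed below 1.5-fold. None of the falls reached 2-fold, and 7 of the 13 stayed below 1.5-fold. With no adjustment for many genes, 750 genes were higher (5.54%) and 637 lower (4.71%) at p under 0.05, the background for the gene lists described here.

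**Figure D1:**
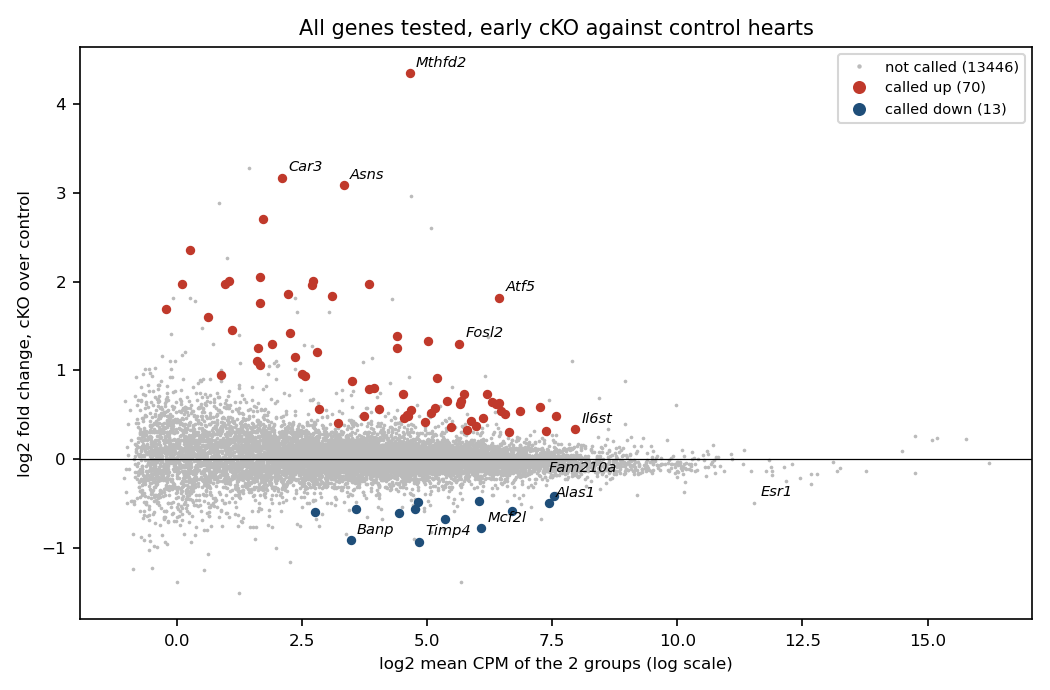
Log2 fold change (cKO over control) of each gene tested against its log2 mean CPM, with the 70 genes called up in red and the 13 called down in blue. The called rises reach 4.35 (Mthfd2), the called falls end at -0.93 (Timp4), and most abundant genes lie close to 0.

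Of the 70 rises, 29 were members of stress lists (ATF4 targets, serine, folate and proline synthesis, cytosolic tRNA synthetases, antioxidant genes, immediate early genes and the like) and 41 were not, Atf4 itself among the latter. The lists were chosen with earlier results of these data known, so the count of 29 is a description and was not tested. The stress genes differed in size between hearts. Mthfd2 stood at 44.5, 57.2, 60.8 and 29.2 CPM in cKO hearts and at 2.69, 2.23, 1.35 and 3.08 CPM in controls. Cytosolic tRNA synthetases, which load amino acids onto tRNA, were positive in 18 of 20 members tested, with a list median of 0.36. Of these members 12 were higher at an unadjusted p under 0.05, and 9 were called. Mean log2 deviations of that list from the controls were 0.31, 0.40, 0.44 and 0.19 in the cKO hearts, so the heart with conflicting labels was the lowest, and controls lay between -0.03 and 0.04.

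Promoters of these genes were searched for short motifs, since members of the stress lists moved together. The letters TGATGNAA, the core bound by ATF4 with C/EBP partners, occurred on either strand of the 300-base promoter (250 bases before to 50 after the start, RefSeq GRCm38.p6) in 6 of 53 called rises with a promoter in the table (11.3%), against 2.72% of 9587 tested genes. On the strand of the gene alone the shares were 3.77% and 1.28%. Among cytosolic tRNA synthetases 5 of 12 promoters held it on either strand (41.7%) and 1 of 12 on the strand of the gene (8.33%). Among serine, folate and proline genes 1 of 12 held it (8.33%), and among called falls 1 of 7, Mcf2l (14.3%). A match is a description of letters and not a bound site. The 4 called rises with a match before the start are shown, 150 bases up to the start on the strand of the gene, with the match in capitals; they show that its distance from the start differs.
Asns: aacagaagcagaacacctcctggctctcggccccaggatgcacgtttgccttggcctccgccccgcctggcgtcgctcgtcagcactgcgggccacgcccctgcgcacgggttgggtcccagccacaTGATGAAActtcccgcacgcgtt
Gars: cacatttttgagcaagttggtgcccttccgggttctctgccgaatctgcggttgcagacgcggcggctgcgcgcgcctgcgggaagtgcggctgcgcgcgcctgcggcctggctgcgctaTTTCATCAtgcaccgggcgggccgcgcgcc
Aars: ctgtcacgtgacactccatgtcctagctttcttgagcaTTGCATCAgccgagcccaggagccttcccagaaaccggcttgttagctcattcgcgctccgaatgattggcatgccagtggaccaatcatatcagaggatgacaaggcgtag
Pycr1: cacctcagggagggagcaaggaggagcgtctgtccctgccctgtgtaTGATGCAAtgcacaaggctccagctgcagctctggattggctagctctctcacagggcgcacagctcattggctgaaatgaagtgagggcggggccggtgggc
These stretches lie at chr6:7693210-7693359 (minus strand), chr6:55037851-55038000 (plus), chr8:111033692-111033841 (plus) and chr11:120643749-120643898 (minus). The matches begin 23, 30, 112 and 103 bases before the start in that order. Asns makes asparagine, Pycr1 makes proline, and Gars and Aars charge tRNA with glycine and alanine. Asns rose by 3.09, Pycr1 by 2.05, Gars by 0.63 and Aars by 0.62 on the log2 scale (edgeR adjusted p from 8.41e-05 to 0.0106). The cyclic AMP element TGACGTCA occurred in 0 of the 53 promoters, against 3.55% of tested genes.

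Genes of protein synthesis were among the smallest differences to pass. Rpl3, a protein of the large ribosomal subunit, stood at 104, 113, 120 and 106 CPM in cKO hearts and at 87.9, 88.2, 92.9 and 88.1 CPM in controls. Its log2 fold change of 0.31 (SE 0.06, edgeR adjusted p = 0.0314) was the smallest rise called. Snord83b and Snord43 lie within Rpl3, so their reads cannot be told apart from it. Eif3c, a subunit of the factor that brings the small ribosomal subunit to mRNA, stood at 177, 194, 196 and 171 CPM in cKO hearts and at 147, 145, 152 and 147 CPM in controls (log2 fold change 0.32, SE 0.06, adjusted p = 0.0261). Both genes had their cKO hearts above all controls, with a spread of a few percent within the controls. Eif2s2, the beta subunit of the factor whose phosphorylation starts the integrated stress response, rose by 0.43 (adjusted p = 0.0283), and Ctps, which makes CTP, rose by 0.36 (adjusted p = 0.0496). All 4 calls were lost when cKO replicate 2 or 3 or control replicate 1, 2 or 4 was left out.

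Further rises outside the stress lists are given by what the genes do, with no list or enrichment behind the order. Il6st, the shared receptor subunit gp130 of the interleukin-6 family, stood at 261, 292, 291 and 265 CPM in cKO hearts and at 228, 229, 200 and 219 CPM in controls. The groups did not overlap, and the difference was 0.34 on the log2 scale (SE 0.06, edgeR adjusted p = 0.0320). Nfkb2, a subunit of the NF-kappaB family, rose by 0.42 (adjusted p = 0.0333). Irs2, an adaptor of the insulin receptor, stood at 30.3, 71.3, 31.6 and 51.9 CPM in cKO hearts and at 12.6 to 25.0 CPM in controls, with a wide spread within cKO (log2 fold change 1.33, SE 0.26, adjusted p = 0.0441). Inhba, which encodes the subunit of activin A, stood at 4.94, 5.03, 6.18 and 3.25 CPM in cKO hearts and at 1.09 to 1.68 CPM in controls (1.76, SE 0.22, adjusted p = 0.00358). The Inhba call held whichever heart was left out, while the calls of Il6st, Nfkb2 and Irs2 were each lost without cKO replicate 2 or control replicate 1, 3 or 4, those of Il6st and Nfkb2 also without cKO replicate 3 or control replicate 2, and that of Irs2 without cKO replicate 4. Ifrd1, Nedd9, Cecr2 and Zfp608 rose by 0.57, 0.52, 0.56 and 0.79 (adjusted p from 0.00683 to 0.0452). The Zfp608 call held whichever heart was left out, and the other calls in that group did not.

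Among enzymes and membrane proteins, Cyb5r1, a flavin reductase that uses NADH, stood at 47.5, 52.4, 56.5 and 33.8 CPM in cKO hearts and at 24.0 to 26.5 CPM in controls. Its log2 fold change was 0.91 (SE 0.13, edgeR adjusted p = 0.00646), the controls lay close together, and the call held with any 1 heart left out. Maoa, the outer mitochondrial membrane enzyme that breaks down serotonin and noradrenaline, stood at 8.05, 8.51, 14.4 and 7.86 CPM in cKO hearts and at 3.62 to 4.79 CPM in controls (1.21, SE 0.20, adjusted p = 0.0144). Rtn4, which shapes tubules of the endoplasmic reticulum, stood at 129, 141, 159 and 117 CPM in cKO hearts and at 88.4 to 101 CPM in controls (0.54, SE 0.08, adjusted p = 0.0121). The Maoa call was lost without control replicate 3 or 4, and the Rtn4 call without control replicate 3. Acox2, a peroxisomal oxidase of branched and bile acid side chains, rose by 1.97 (adjusted p = 0.00659), Fads3 of the fatty acid desaturase family rose by 0.37 (adjusted p = 0.0285), and Extl1, a glycosyltransferase of the exostosin family, rose by 0.65 (adjusted p = 0.00646). Rubcn, an inhibitor of autophagosome maturation, rose by 0.33 (adjusted p = 0.0126). The calls of Acox2 and Extl1 held with any 1 heart left out, and those of Fads3 and Rubcn did not. Pcdhga8 rose by 1.69 and Csf2rb2 by 0.95. The first shares exons with its gene cluster and the second is nearly identical to Csf2rb, so the gene behind these reads is uncertain. Both calls were lost without any 1 of cKO replicates 1 to 3 or of the controls, and that of Csf2rb2 also without cKO replicate 4.

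None of the 13 falls was a member of a stress list, but those lists hold few of the genes tested, so this count carries no weight. Mtr, the cytosolic methionine synthase that takes methyl groups from the folate cycle, stood at 146, 156, 155 and 174 CPM in cKO hearts and at 228, 216, 197 and 205 CPM in controls. Its log2 fold change of -0.42 (SE 0.07, edgeR adjusted p = 0.0121) stood opposite in sign to the mitochondrial folate enzymes Mthfd2 and Aldh1l2, and the call was lost without cKO replicate 2. Alas1 (chromosome 9, 106233455 to 106248654), the first enzyme of heme synthesis in most tissues, stood at 165, 139, 142 and 131 CPM in cKO hearts and at 210, 218, 207 and 183 CPM in controls. It fell by 0.50 (SE 0.08, adjusted p = 0.0120), and with Banp and mt-Tw it was 1 of the 3 falls called whichever heart was left out. Ppargc1a (chromosome 5, 51454250 to 51567726), the coactivator PGC-1alpha of mitochondrial gene expression, stood at 84.3, 70.7, 79.3 and 98.5 CPM in cKO hearts and at 123, 144, 110 and 119 CPM in controls. It fell by 0.58 (SE 0.10, adjusted p = 0.0223), 32.9% lower, and the call was lost on leaving out cKO replicate 2 or 3 or control replicate 1, 2 or 4.

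Timp4, an inhibitor of metalloproteinases, stood at 12.8, 17.4, 23.2 and 25.1 CPM in cKO hearts and at 31.5, 39.3, 39.3 and 40.3 CPM in controls. It fell by 0.93 (SE 0.17, edgeR adjusted p = 0.0237), and it lies within Syn2 on the other strand. Banp, a nuclear protein that binds unmethylated CG-rich promoters, stood at 7.80, 5.90, 8.28 and 8.92 CPM in cKO hearts and at 13.1 to 15.1 CPM in controls (log2 fold change -0.91, SE 0.12, adjusted p = 0.00358). The cKO hearts of both genes lay well under the lowest control. Mcf2l fell by 0.78, Rin3, an exchange factor of Rab proteins, fell by 0.61, Slc16a7, a monocarboxylate transporter, fell by 0.60, and Cep128, a centriole protein, fell by 0.56 (adjusted p from 0.0133 to 0.0324). Sox7 and Sox18, related transcription factors of vessels, fell by 0.56 and 0.48, and Thbd, the endothelial thrombin receptor thrombomodulin, fell by 0.47 (adjusted p = 0.0322, 0.0240 and 0.0406). Of the 9 genes from Timp4 to Thbd, Banp kept its call whichever heart was left out. The others lost it without control replicate 4 and, Mcf2l excepted, without cKO replicate 2. The endothelial marker list as a whole had 8 of 20 members above 0 with a median of -0.02 (0.02 without control replicate 4), and its summed level was 2090 to 2100 CPM in cKO hearts and 1985 to 2283 CPM in controls.

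**Figure D2:**
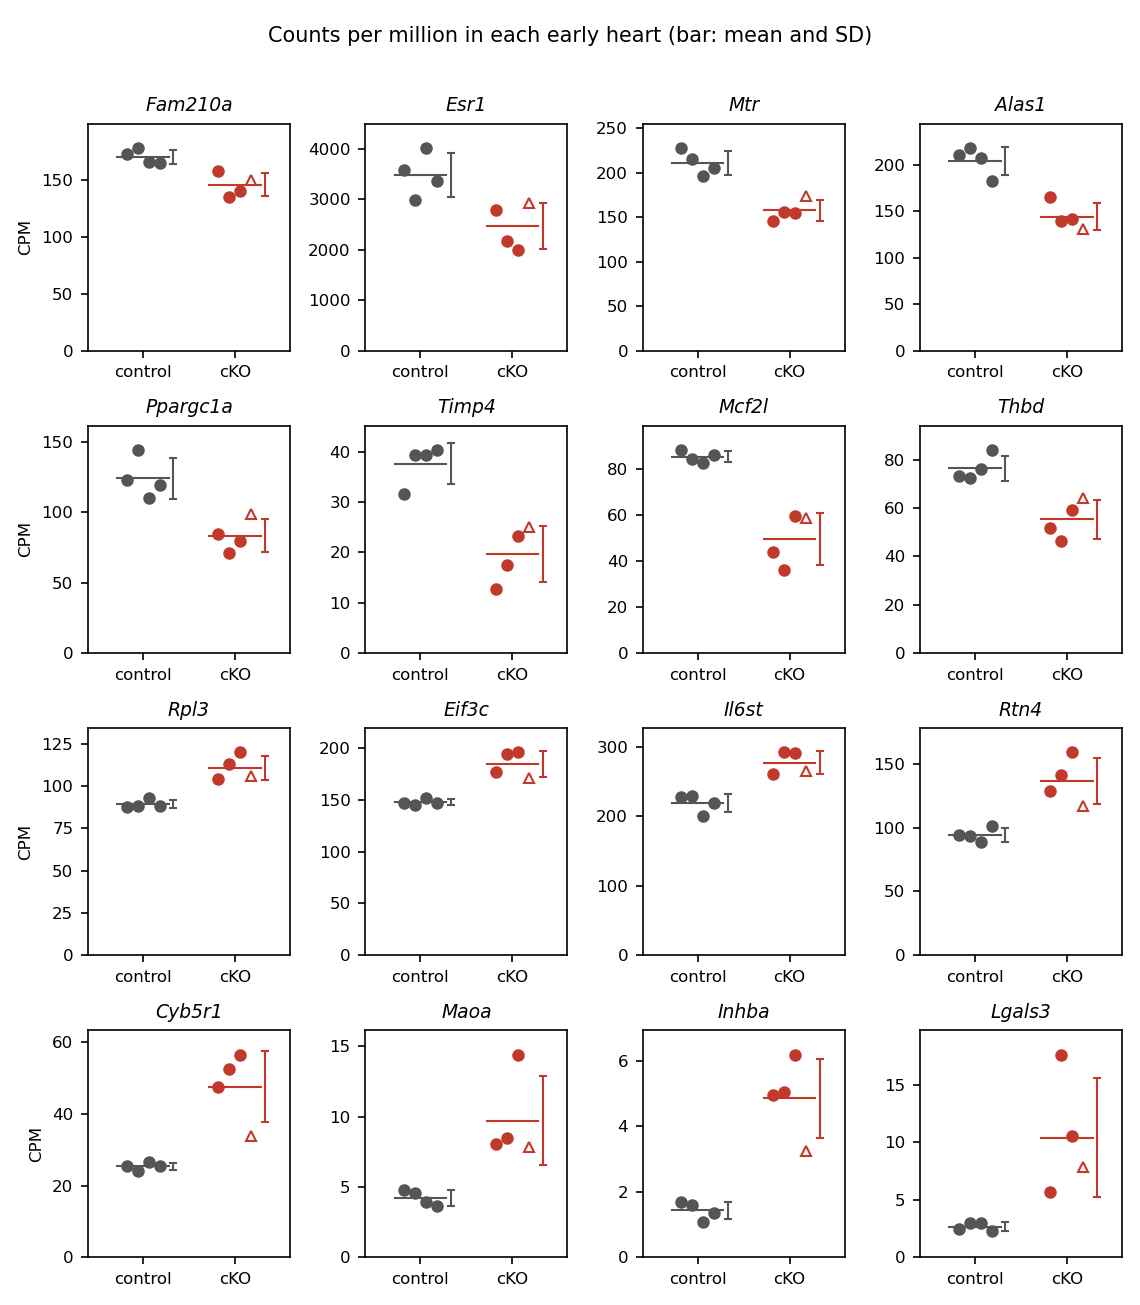
CPM of 16 genes in each control (grey) and cKO (red) heart, with the mean as a line and the SD as an error bar; the open triangle is cKO replicate 4, whose labels disagree. Fam210a and Esr1 did not pass the test with all hearts, the next 6 genes were called lower and the last 8 called higher, and in each panel the groups do not overlap.

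Beyond single calls, gene lists were described by how many members lay above 0 and by their median, beside 50.1% of all genes above 0 and a median of 0.00. The lists of protein synthesis lay above 0. Among 30 genes of ribosome assembly 27 were positive, with a median of 0.14 that stayed between 0.10 and 0.15 with any 1 heart left out. None was called, and 8 were higher at an unadjusted p under 0.05, against the background of 5.54%. Nop58, a core protein of the complexes that methylate ribosomal RNA, stood at 23.5 CPM or more in cKO hearts and at 19.7 to 21.5 CPM in controls (log2 fold change 0.28, SE 0.08, edgeR adjusted p = 0.170). Gnl3, Rrp12 and Ddx21, other nucleolar proteins, differed by 0.36, 0.33 and 0.16 (adjusted p from 0.278 to 0.350). The list mean was 0.10, 0.17, 0.21 and 0.06 above the control mean in the cKO hearts and -0.02 to 0.04 in controls, so the groups did not overlap.

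Ribosomal proteins shared the direction but not the separation. Of the large subunit 42 of 45 members were positive with a median of 0.13, and of the small subunit 31 of 32 with a median of 0.11. Apart from Rpl3 none was called with all hearts, and Rpl26 joined it without cKO replicate 4 (log2 fold change 0.28, adjusted p = 0.0469). Control replicate 3 lay 0.19 above the control mean in both lists, level with cKO replicates 2 and 3, while the other controls lay between -0.08 and -0.05. Without that heart all 45 and all 32 members were positive, and both medians were 0.18. Translation factors were positive in 34 of 45 members with a median of 0.06, and Eif4ebp1, a repressor of cap-dependent translation and a known ATF4 target, differed by 0.30 (adjusted p = 0.170).

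**Figure D3:**
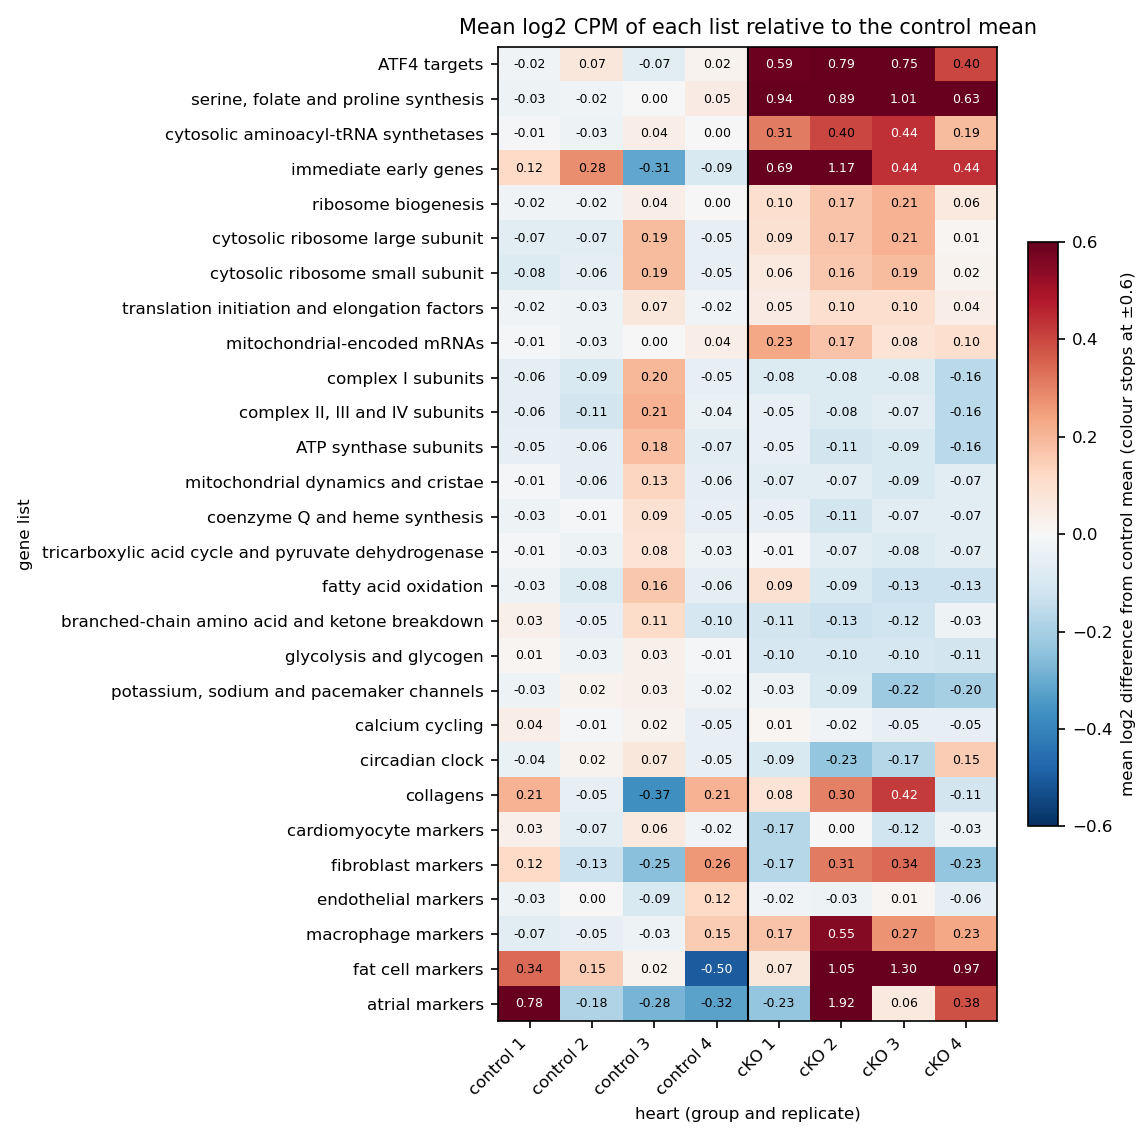
Mean log2 CPM of 28 gene lists in each heart relative to the control mean (columns are hearts, rows are lists, red is higher and blue lower). The groups do not overlap, with cKO higher, in ATF4 targets, serine, folate and proline synthesis, tRNA synthetases, immediate early genes and ribosome biogenesis. The same holds for mitochondrial-encoded mRNAs and macrophage markers. With cKO lower, they do not overlap in dynamics and cristae, coenzyme Q and heme synthesis, glycolysis and glycogen, and ion channels. In coenzyme Q and heme synthesis and in ion channels the gap is too small to show at the printed precision. Control replicate 3 is higher than the other controls in ribosomal and nuclear-encoded respiratory lists, and cKO replicate 2 stands out in atrial markers at 1.92.

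Nuclear genes of the respiratory chain lay below 0 by small amounts. Of 36 complex I subunits none was positive, with a median of -0.11, and complexes II, III and IV had 2 of 28 and ATP synthase 1 of 17 positive, both with a median of -0.11. None was called, and 3, 7 and 2 members were lower at an unadjusted p under 0.05, against a background of 4.71%. Ndufc2, an accessory subunit of complex I, stood at 101, 98.1, 101 and 102 CPM in cKO hearts and at 105, 117, 137 and 107 CPM in controls (log2 fold change -0.22, edgeR adjusted p = 0.353). The highest control was replicate 3. Without that heart the 3 medians were -0.03, and 8 of the 36 complex I subunits were positive. These subunits have short transcripts, a class in which control replicate 3 was high. Its median log2 difference from the other controls was 0.30 in complex I and 0.25 in ATP synthase subunits, against 0.15 over the shortest genes. The part of that heart in the result was measured here only by leaving it out. Without cKO replicate 4 the complex I median was -0.08.

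Other mitochondrial lists leaned the same way. Fatty acid oxidation had 2 of 27 members positive (median -0.08), the tricarboxylic acid cycle with pyruvate dehydrogenase 3 of 31 (-0.09), and dynamics and cristae 2 of 20 (-0.08). Without control replicate 3 these medians were -0.01, -0.05 and -0.03. Breakdown of branched-chain amino acids and ketones held its median better, at -0.11 with all hearts and between -0.14 and -0.07 with any 1 left out, with 6 of 24 members lower at an unadjusted p under 0.05. Of its members, Ivd, which acts on leucine, stood at 393, 347, 371 and 429 CPM in cKO hearts and at 481, 441, 468 and 391 CPM in controls. The groups overlapped at cKO replicate 4 and control replicate 4 (log2 fold change -0.21, adjusted p = 0.390). Among 18 regulators of mitochondrial biogenesis, 5 were lower at an unadjusted p under 0.05, with Ppargc1a the single call. Of these, the orphan nuclear receptors Esrrb and Nr0b2 stood at -0.23 and -0.46 (adjusted p = 0.262 and 0.243), and Perm1, a muscle partner of PGC-1alpha, at -0.15 (adjusted p = 0.464).

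Lonp1, a protease of the mitochondrial matrix, was the exception among 21 mitochondrial chaperones and proteases. It stood at 225, 227, 255 and 184 CPM in cKO hearts and at 157, 150, 172 and 156 CPM in controls (log2 fold change 0.49, SE 0.09, edgeR adjusted p = 0.0256). Every cKO heart was above every control, and omitting cKO replicate 2 or 3, or control replicate 1, 2 or 4, ended the call. The list median was 0.00, and Hspa9, the matrix chaperone mortalin, differed by 0.21 (adjusted p = 0.167).

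Transcripts made inside mitochondria lay on the other side of 0 from the nuclear subunits. Mitochondrial genes took 29.4%, 27.3%, 25.6% and 27.7% of counts in cKO hearts and 25.1%, 26.0%, 24.5% and 25.5% in controls. The difference of 2.22 percentage points had an exact two-sided permutation p of 0.0571, since cKO replicate 3 lay below control replicate 2. Only 7 of the 13 mitochondrial mRNAs could be tested, the other 6 having at most 18 reads in any heart. Of these 7, 6 were positive, with a median of 0.21 that stayed between 0.16 and 0.27 with any 1 heart left out, and none was called. mt-Cytb, a subunit of complex III, stood at 65426, 60522, 55833 and 60031 CPM in cKO hearts and at 52436, 50393, 50835 and 52055 CPM in controls (log2 fold change 0.23, SE 0.07, edgeR adjusted p = 0.231). mt-Nd1 of complex I was likewise higher in every cKO heart (0.24, adjusted p = 0.315), while mt-Co1 of complex IV lay at -0.04 (adjusted p = 0.903).

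The ribosomal RNAs of mitochondria did not follow the mRNAs. mt-Rnr2, the large ribosomal RNA, stood at 6087, 5601, 5779 and 5967 CPM in cKO hearts and at 7148, 7827, 6498 and 7000 CPM in controls. Every cKO heart was lower, by 0.28 on the log2 scale (SE 0.07, edgeR adjusted p = 0.120). mt-Rnr1, the small one, stood at 0.10 (adjusted p = 0.665). mt-Tw, the tRNA for tryptophan (mitochondrial positions 4950 to 5016), was called lower, at 32.6, 29.3, 31.3 and 32.4 CPM in cKO hearts and 58.8, 51.5, 47.1 and 44.0 CPM in controls. It fell by 0.68 (SE 0.09, adjusted p = 0.00358). It overlaps mt-Nd2 on the same strand, so reads at the border cannot be told apart, and mt-Nd2 itself stood at 0.26 (adjusted p = 0.365). Libraries were selected by poly-A, so levels of mitochondrial rRNA and tRNA here are those of captured fragments.

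**Figure D4:**
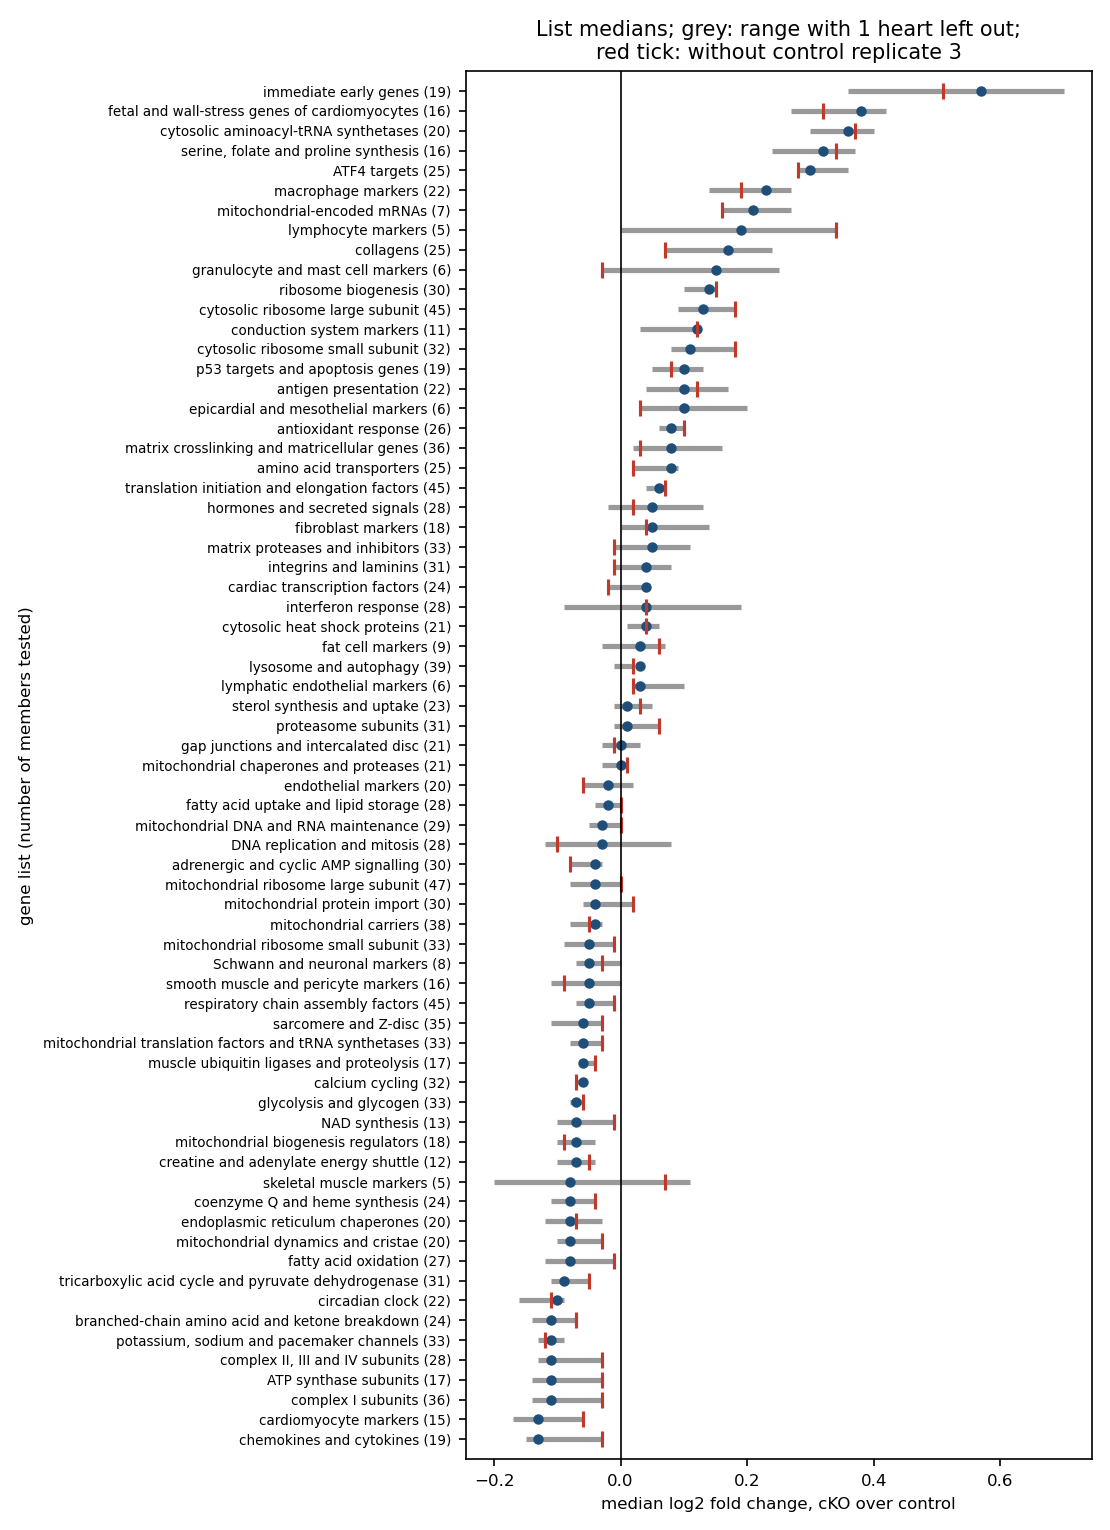
Median log2 fold change of each gene list with at least 5 tested members, with the range over fits that leave out 1 heart in grey and the value without control replicate 3 as a red tick; erythroid and atrial markers, whose ranges are wide, are left out. Respiratory lists move from -0.11 to -0.03 without that control heart, while ion channels, glycolysis and ribosome assembly stay where they were.

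Glucose and glycogen genes were lower by a small, even amount. Of 33 members 6 were positive, with a median of -0.07 that stayed between -0.08 and -0.06 with any 1 heart left out. The list means of the cKO hearts were -0.10, -0.10, -0.10 and -0.11, and those of controls -0.03 to 0.03. One member, Slc16a7, was called, and 7 were lower at an unadjusted p under 0.05. Eno3, the muscle enolase, stood at 1053, 1083, 1014 and 1008 CPM in cKO hearts and at 1144, 1173, 1425 and 1222 CPM in controls (log2 fold change -0.26, SE 0.07, edgeR adjusted p = 0.198). Slc16a1, the lactate transporter, and Slc2a4, the insulin-responsive glucose transporter GLUT4, stood at -0.20 and -0.22 (adjusted p = 0.202 and 0.302). Lpl, the lipase that frees fatty acids from blood lipids, stood at 4314, 4029, 4346 and 4310 CPM in cKO hearts and at 5041, 4844, 5511 and 4754 CPM in controls. Every cKO heart was lower (-0.25, SE 0.06, adjusted p = 0.161).

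Ion channels of the heart muscle lay below 0. Of 33 potassium, sodium and pacemaker channel genes and pumps, 27 were negative, 11 of them at an unadjusted p under 0.05 against a background of 4.71%, and none was called. The median of -0.11 stayed between -0.13 and -0.09 with any 1 heart left out. Scn4b, an accessory sodium channel subunit, stood at 39.4, 33.9, 35.0 and 36.9 CPM in cKO hearts and at 50.7, 43.2, 60.6 and 41.0 CPM in controls. The groups did not overlap (log2 fold change -0.43, SE 0.11, edgeR adjusted p = 0.148). Kcnd2, a channel of the transient outward potassium current, stood at 39.0, 32.3, 30.3 and 39.3 CPM in cKO hearts and at 47.2, 44.8, 41.0 and 40.3 CPM in controls (-0.30, SE 0.09, adjusted p = 0.257). Kcnv2, a modifying potassium subunit, and Kcnj12, an inward rectifier, stood at -0.45 and -0.28 (adjusted p = 0.149 and 0.311). The list means were lowest in cKO replicates 3 and 4, at -0.22 and -0.20, and the other 2 cKO hearts were at -0.03 and -0.09, with cKO replicate 1 close to control replicate 1 at -0.03.

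Abundant genes of contraction were also lower in whole-heart RNA without passing. Myh6, the alpha myosin heavy chain whose promoter drives the transgene, stood at 27346, 24752, 24159 and 27105 CPM in cKO hearts and at 28382, 28683, 30209 and 28427 CPM in controls. The groups did not overlap (log2 fold change -0.16, SE 0.07, edgeR adjusted p = 0.428). Atp2a2, the calcium pump SERCA2, and Tnnt2, cardiac troponin T, stood at -0.14 and -0.17 (adjusted p = 0.468 and 0.410). Calcium cycling genes were positive in 8 of 32 members, with a median of -0.06. Sarcomere and Z-disc genes were positive in 11 of 35 members with the same median, but their list means, at -0.13, 0.30, 0.09 and 0.12, lay above 0 in 3 of the 4 cKO hearts. The controls overlapped them, at 0.20, -0.04, -0.02 and -0.15. The highest heart of each group, cKO replicate 2 and control replicate 1, was also the highest in atrial markers (1.92 and 0.78). The largest log2 fold change was 2.96 in both lists, so likeness between them may be in part built in by a shared member. The part of atrial muscle in the sarcomere means was not tested. In RNA from whole hearts, fewer cells of a type and less RNA per cell cannot be told apart.

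Most wall-stress genes lay above 0, but the groups overlapped. Among 16 fetal and wall-stress genes of cardiomyocytes 14 were positive with a median of 0.38, and 7 were higher at an unadjusted p under 0.05. The median was 0.27 without cKO replicate 2 and 0.19 without both that heart and control replicate 3. List means were -0.05, 0.47, 0.62 and 0.28 in cKO hearts and 0.16, 0.00, -0.26 and 0.10 in controls. Nmrk2, a kinase of NAD synthesis, was called (1.25, edgeR adjusted p = 0.0121), though not without control replicate 3. Immediate early genes, which respond to stimuli within the hour, were positive in 18 of 19 members with a median of 0.57, and 0.36 without cKO replicate 2, and Myc and Fosl2 rose by 1.42 and 1.30 (adjusted p = 0.00873 and 0.0121), the latter not without control replicate 3 or 4. Ankrd1, a stretch-responsive protein of the sarcomere, stood at 715, 1449, 1392 and 1337 CPM in cKO hearts and at 780, 787, 720 and 917 CPM in controls. The other cKO hearts were above all controls, and cKO replicate 1 lay below all controls (0.61, SE 0.17, adjusted p = 0.206). Xirp2, an actin-binding protein of intercalated discs, was above controls in all 4 cKO hearts, at 473 to 673 CPM against 382 to 451 CPM (0.39, adjusted p = 0.145). Of 39 lysosome and autophagy genes 20 were positive, with 6 higher at an unadjusted p under 0.05 and none lower. Sqstm1, the autophagy receptor p62, stood at 389, 438, 472 and 458 CPM in cKO hearts and at 316, 332, 372 and 368 CPM in controls, just short of the test (0.34, SE 0.07, adjusted p = 0.0813). Of 28 genes for hormones and secreted signals, 18 were positive with a median of 0.05, while without cKO replicate 2 only 13 were positive and the median was -0.02. Gdf15, a stress hormone, and Inhba were called, and Igfbp3, a carrier of insulin-like growth factors, and Tgfb2 stood at 0.36 and 0.41 (adjusted p = 0.0788 and 0.0997).

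Without cKO replicate 4 more genes were called. Of 13677 tested genes 181 passed (1.32%), 115 higher (0.841%) and 66 lower (0.483%), of which 79 were also called with all hearts. In 51 of 99 further genes tested in both fits, that heart lay inside the range of the controls, for 19 genes that rose and 32 that fell without it. Genes called without a heart and not with it are bound to have that heart nearer the controls, so its place among them is a description, and the genes named next were chosen after their values were seen. Pdk4, the kinase that shuts off pyruvate dehydrogenase, stood at 793, 933 and 576 CPM in cKO replicates 1 to 3, at 279 CPM in cKO replicate 4, and at 261 to 409 CPM in controls. Without replicate 4 it rose by 1.13 (SE 0.16, edgeR adjusted p = 0.00357), and with it the change was 0.88 (adjusted p = 0.261). Angptl4, an inhibitor of lipoprotein lipase, stood at 12.4, 22.3 and 12.5 CPM, then 2.78 CPM in replicate 4, and at 3.05 to 4.59 CPM in controls (1.99 without replicate 4, adjusted p = 0.000546). Klf15, a factor of amino acid and lipid use in muscle, stood at 30.2, 28.5 and 42.6 CPM, then 58.3 CPM, and at up to 61.7 CPM in controls, all above those 3 hearts (-0.77, adjusted p = 0.00905). In each of the 3 genes cKO replicate 4 lay with the controls or beyond them. Of the lists these genes could stand for, fatty acid oxidation had 0 of 27 members called in that fit, against 1.32% of all genes. Fatty acid uptake and storage had 2 of 28 (Angptl4 and Ucp3). The tricarboxylic acid cycle with pyruvate dehydrogenase had 1 of 31 (Pdk4). Angptl4 and Pdk4 are the genes named above, and these counts are too small to read against that share.

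Of 22 circadian clock genes 8 were called without cKO replicate 4, 2 higher and 6 lower, and none with all hearts. Per2, a repressor of the clock, stood at 19.6 and 11.3 CPM in cKO replicates 1 and 2 and close to 20 CPM in replicate 3, at 46.3 CPM in replicate 4 and at 36.1 to 49.5 CPM in controls. It fell by 1.33 without replicate 4 (SE 0.17, edgeR adjusted p = 0.00207). Ciart also fell, Per3, Hlf, Tef and Nr1d2 fell by 0.91, 0.96, 0.65 and 0.44, and the clock activator Npas2 and the repressor Nfil3 rose by 1.25 and 0.81 (adjusted p from 0.00207 to 0.0469 over the list). The hour at which hearts were taken is not given in the sources used here, and its part in these differences was not tested. Cytosolic tRNA synthetases called numbered 9 with this heart and 10 without it.

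**Figure D5:**
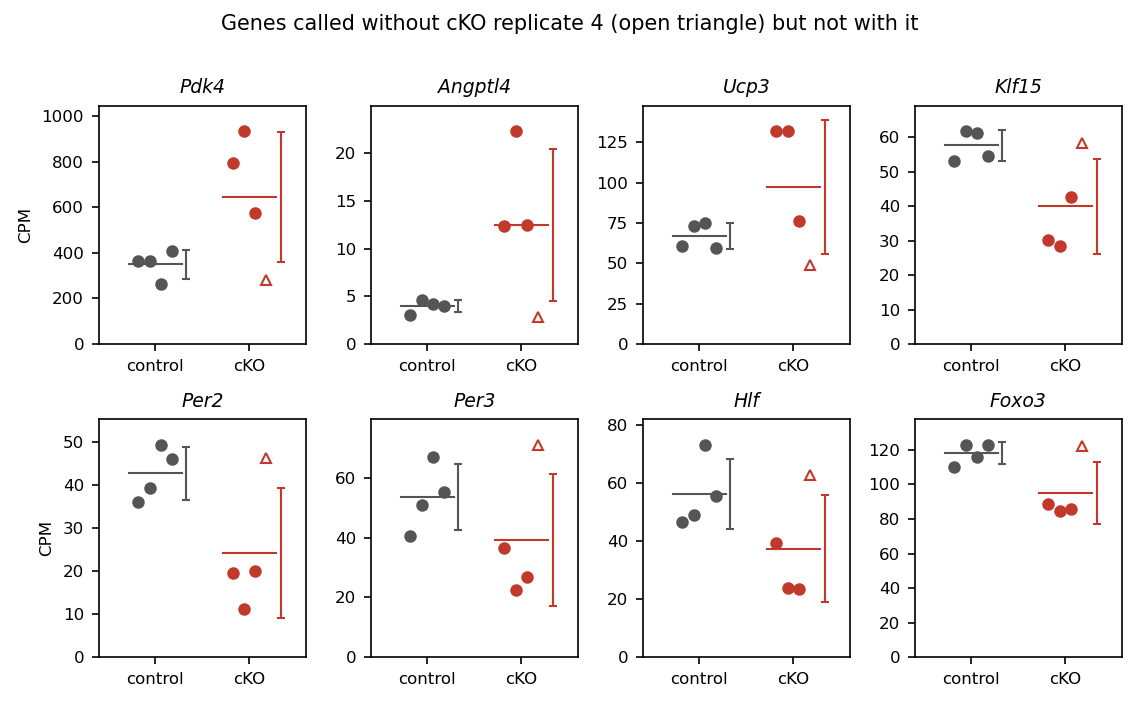
CPM of 8 genes called without cKO replicate 4 but not with it, in each control (grey) and cKO (red) heart, with group means as lines and the SD over all 4 hearts as error bars. The open triangle, cKO replicate 4, lies in or beyond the range of the controls in each panel, for example 46.3 CPM for Per2.

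Marker genes of the cell types in a heart were examined beside these lists. Of 15 cardiomyocyte markers 2 were positive with a median of -0.13, and -0.06 without control replicate 3. Their summed level was 77743 to 82171 CPM in cKO hearts and 85402 to 94971 CPM in controls, with no overlap, and Myh6 gave 24159 CPM or more of it in each heart. Their list means did overlap, at -0.17, 0.00, -0.12 and -0.03 in cKO hearts and 0.03, -0.07, 0.06 and -0.02 in controls. The order of the hearts differed from that of the channel list, and the part of cardiomyocyte content in the channel, sarcomere and metabolic values was not tested. Macrophage markers were positive in 20 of 22 members with a median of 0.23, 0.14 without cKO replicate 2 and 0.15 without control replicate 2. Their summed level was 442 to 605 CPM in cKO hearts and 421 to 485 CPM in controls, which overlap. Their list means did not overlap, at 0.17, 0.55, 0.27 and 0.23 in cKO hearts and -0.07, -0.05, -0.03 and 0.15 in controls. Lgals3, galectin-3, was the single call, at 5.64, 17.6, 10.5 and 7.86 CPM in cKO hearts and 2.25 to 3.01 CPM in controls (log2 fold change 1.96, SE 0.31, edgeR adjusted p = 0.0121), a call lost without control replicate 3 or 4. Cx3cr1 and Spi1 stood at 0.74 and 0.55 (adjusted p = 0.332 and 0.337).

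Collagen levels differed between hearts within each group, as did fibroblast markers. The fibroblast list itself holds the collagen genes Col1a1, Col1a2 and Col3a1, so likeness between these lists is in part built in. Collagens were positive in 23 of 25 members with a median of 0.17, and none was called. The median was 0.07 without cKO replicate 3 and also without control replicate 3, when 17 members were positive, and 0.01 without both cKO replicate 2 and control replicate 3. The list means ranged from -0.11 to 0.42 in cKO hearts and from -0.37 to 0.21 in controls. Fibroblast markers ranged from -0.23 to 0.34 and from -0.25 to 0.26, high in cKO replicates 2 and 3 and control replicate 4. In cKO replicate 1 they lay at -0.17, while collagens lay at 0.08. The part of fibroblast content in the collagen values was not tested. Fmod, a collagen-binding proteoglycan, stood at 3.30, 5.21, 13.8 and 6.67 CPM in cKO hearts and at 1.79 to 2.25 CPM in controls (log2 fold change 1.86, SE 0.38, edgeR adjusted p = 0.0493), and Adamts1, a proteoglycan-cleaving protease, rose by 0.65 (adjusted p = 0.0419). Masp1, a protease of the lectin complement pathway, rose by 0.80 (adjusted p = 0.0121). Leaving out control replicate 3 ended each of these 3 calls, and leaving out cKO replicate 2 or control replicate 1 or 4 ended those of Fmod and Adamts1.

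Markers of fat cells were examined beside Car3, which belongs to that list. Car3, a carbonic anhydrase of fat and muscle, stood at 1.58, 7.81, 12.5 and 9.10 CPM in cKO hearts and at 1.56, 0.956, 0.833 and 0.119 CPM in controls (log2 fold change 3.17, SE 0.58, edgeR adjusted p = 0.0270), and omitting cKO replicate 2 or 3, or control replicate 2, 3 or 4, ended the call. Other fat cell genes ran with it in cKO replicates 2, 3 and 4. Adipoq, which is specific to fat cells, stood at 0.317, 2.31, 2.34 and 1.24 CPM in cKO hearts and at 0.419 CPM or less in controls, and Cfd, adipsin, at 0.634, 4.11, 9.17 and 5.79 CPM against 1.02 CPM or less (3.28, adjusted p = 0.0502). Of 9 fat markers tested 5 were positive, with a median of 0.03 (-0.03 without cKO replicate 1), and Fabp4, a fatty acid carrier, stood at -0.02. The list means were 0.07, 1.05, 1.30 and 0.97 in cKO hearts and 0.34, 0.15, 0.02 and -0.50 in controls, so the groups overlapped. The summed level overlapped too, at 546 to 599 CPM in cKO hearts and 499 to 579 CPM in controls. Car3 and Cfd are themselves in the list, and the part of fat cells in the Car3 value was not tested. Atrial markers differed by heart and not by group, at -0.23, 1.92, 0.06 and 0.38 in cKO hearts and 0.78, -0.18, -0.28 and -0.32 in controls, and Bmp10, made in atrial muscle, was at 165 CPM in cKO replicate 2 and at most 0.0593 CPM elsewhere. Lung and airway markers were at or near 0, with 7 of them at 0 in all hearts and a sum of at most 0.598 CPM.

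Genes near the deleted locus mostly lay above 0, and too few were tested to read their calls against the share over all genes. Of 17 tested genes within 2 Mb of Fam210a, 13 were positive with a median of 0.06, and none was called. At an unadjusted p under 0.05, 3 of them were higher and 0 lower, against backgrounds of 5.54% and 4.71%. Within 5 Mb 22 of 31 were positive, with 5 higher and 1 lower at that threshold. The single call among the 31 was Nars, a cytosolic tRNA synthetase (chromosome 18, log2 fold change 0.51, edgeR adjusted p = 0.00538). On chromosome 18 as a whole 5 of 343 genes were called (1.46%), beside 1.37% on chromosomes 8 and 19 and 0.613% over all genes. Rnmt, the RNA cap methyltransferase, stood at 0.22 (adjusted p = 0.343).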

How the data were processed

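RNA from whole hearts was sequenced as poly-A selected libraries (TruSeq RNA kit V2, single-end reads of 100 nt from 100 ng of total RNA, per the labels' protocols). The authors deposited raw read counts for each gene symbol. Trimmomatic 0.36, STAR 2.6.0c and GRCm38 are named per the submitters' processing notes, while counter, annotation and strandedness were not given in the sources used here. Only the early table was analysed.

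From the early counts, genes were kept with filterByExpr (minimum count 10, minimum total 15), scaled with TMM (factors 0.964 to 1.03) and tested with edgeR 4.0.16 in R 4.3.3 (quasi-likelihood F test, 4 against 4 hearts, no covariate, Benjamini-Hochberg adjustment over all 13529 genes). Every adjusted p in the text is from edgeR unless DESeq2 is named. SE was taken as the size of the log2 change over the root of F. Group labels follow the titles. Single values were compared by exact permutation over hearts. Coordinates are from GENCODE M21 (90.2% of tested genes matched) and promoters from RefSeq (70.9%).

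The 73 gene lists and the members described were chosen with earlier results of these data known. Genes are named by a rule: Fam210a, every called fall, the 20 largest called rises, the 8 largest rises and falls in CPM, and up to 4 members with the smallest p of each described list, predicted genes, pseudogenes and Y-linked genes left out; other named genes, among them the smaller called rises, were chosen after their values were seen. Alternatives were other scalings, filters, DESeq2 1.42.0, the replicate number as a block, cKO replicate 4 as a control, each heart left out, and, added after seeing the data, cKO replicate 2 and control replicate 3 left out together. In a test, counts of 13529 genes were simulated gene by gene from the control means and the fitted spread, and a sample of genes above 1 CPM was changed. edgeR recovered 68.0% of the genes changed 1.5-fold and 100% of those changed 3-fold, with 7.18% of calls on unchanged genes. The simulation held no differences shared by many genes of a heart, such as those of control replicate 3 and cKO replicate 2, so the real rates may differ. Depth limits precision for genes near 1 CPM. Hearts of a group differed by more than sampling noise.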

Additional observations from a re-analysis of the deposited data

Results flagged for a closer look

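Within each group of 4 hearts, a heart was marked when its gap to the nearest other heart exceeded Dixon's 95% critical share of the range of its group. Of 222 groups of 4 examined, 18 were marked (8.11%), and chance alone marks about 1 in 20. Control replicate 3 accounts for 11 of the 18.

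Among gene lists, control replicate 3 lay above the other controls in complex I subunits (0.20, others -0.09 to -0.05), ATP synthase subunits (0.18), respiratory chain assembly factors (0.13), mitochondrial translation factors (0.08), mitochondrial DNA and RNA maintenance (0.10), both ribosomal subunits (0.19 and 0.19) and translation factors (0.07), and below them in integrins and laminins (-0.12). These are mean log2 deviations from the control mean. Its Banp level was 13.1 CPM against 14.9 to 15.1 CPM in the other controls, and its Myh6 level was 30209 CPM against 28382 to 28683 CPM.

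The other marks fell on single hearts. Control replicate 1 stood apart in Timp4 (31.5 CPM against 39.3 to 40.3 CPM), atrial markers (0.78) and skeletal muscle markers (-0.18), and control replicate 4 in smooth muscle and pericyte markers (0.14). In cKO replicate 1 Ankrd1 was 715 CPM against 1337 to 1449 CPM in the other cKO hearts. Complex I subunits were lower in cKO replicate 4 (-0.16 against -0.08 in each of the others), and dynamics and cristae genes in cKO replicate 3 (-0.09 against -0.07).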

How the results depend on the processing

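The count of called genes depended on the hearts and the tool. Against 83 called (70 higher, 13 lower), DESeq2 called 177 (127 and 50), the fit with no low-count filter 388 (260 and 128, with 38 of the 388 below the filter), and the fit with cKO replicate 4 as a control 162 (97 and 65). With 1 heart left out at a time the counts were 45 to 181, with 39 to 115 higher and 4 to 66 lower. The lowest, 45, came without control replicate 4 and the highest without cKO replicate 4. Without cKO replicate 2 there were 46, without control replicate 2 54, and without control replicate 3 46. Without both cKO replicate 2 and control replicate 3, an alternative chosen after seeing the data, 15 were called (13 and 2). Of the 83 genes 29 were called in all 8 fits that leave out 1 heart, and all 83 kept their sign in those fits. The share of rises was 84.3%, and 71.8% with DESeq2, 67.0% with no filter, 59.9% with cKO replicate 4 as a control and 63.5% without it. DESeq2 put Fam210a past the threshold (-0.23, adjusted p = 0.0498); no other fit did, with adjusted p from 0.0793 to 0.499.

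Same-numbered hearts did not deviate together (correlations -0.089 to -0.036), so the numbers were not taken as pairs. With the replicate block 78 genes were called, 63 higher and 15 lower, 61 of them among the 83. RLE and upper-quartile scaling called 80 and 81, and the filter of at least 1 CPM in 4 hearts 78. Over 334 named genes and all alternatives, none of 5330 values changed sign while called, 369 lost the call and 147 gained it. Of 1137 list medians, 17 moved by more than the spread between hearts.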
